A study of Rattus norvegicus with 6 samples.

Results

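Alveolar type 1 cells were followed in rat lung through 10 genes: Ager, Aqp5, Hopx, Pdpn, Cav1, Rtkn2, Emp2, Akap5, Clic5 and Gprc5a. The genes were listed by name, with earlier results of these data known, and every probe set assigned to a single gene of the list was used, the brightest one standing for the gene. A probe set is a group of short probes that reports 1 transcript. Of the 10 genes 9 had such a probe set, with 12 probe sets in all among 31042 on the array, which named 14217 genes. No value is given for Rtkn2 because no probe set here carried its name. RNA of whole lung from 6 Lewis rats was hybridised to 1-colour arrays, 1 array per animal. The silica group was 3 rats that inhaled aerosolized crystalline silica (Min-U-Sil 5) at 6.2 mg/m3 for 6 hours a day and 5 days a week during 6 weeks. The control group was 3 rats given filtered air under like conditions. The sources used here do not give sex, age or the interval between the last exposure and sampling.

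Type 1 cells are the thin, flat epithelial cells that cover most of the alveolar surface and form, with the capillary endothelium, the barrier across which gas is exchanged. They are made from alveolar type 2 cells, the cuboidal cells that secrete surfactant, and inhaled particles that damage the alveolar wall are known to injure them. Several of the 10 genes are not restricted to this cell: Cav1 and Emp2 are also made by endothelium, Pdpn by lymphatic vessels, mesothelium and some stromal cells, and Gprc5a by other airway epithelium. In RNA of whole tissue, fewer cells of a type and less RNA per cell cannot be told apart.

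Signals are in linear units, scaled by the authors so that every array had nearly the same trimmed mean, and a level is therefore relative to the rest of the array. Array medians of log2(signal + 16) lay between 7.38 and 7.42. The 3-prime to 5-prime signal ratio of the beta-actin and GAPDH control probe sets, which rises as RNA is degraded or incompletely copied, differed between arrays. Its mean log2 was 1.23, 1.20 and 0.996 in controls 1 to 3 and 1.67, 1.50 and 1.15 in silica 1 to 3. Silica 1 and silica 2 thus lay above every control, and silica 3 between controls (difference 0.30, exact permutation test, 2-sided p = 0.3, where 3 against 3 cannot go below 0.1). Control 2 stood apart in heart muscle RNA, which reaches lung samples through the walls of pulmonary veins: the summed signal of 6 such genes was 262 in control 2, against 3437 and 3073 in the other controls and 768 to 2494 in silica.

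The signals of the type 1 cell genes were high in both groups and mostly lower in silica-exposed lung, by amounts that did not pass the test across all probe sets. Of the 9 measured genes, 8 had a lower mean in silica by their brightest probe set and 1, Clic5, a higher one. The median log2 difference (silica minus control) was -0.24, against 0.02 over all 14217 genes. None of the 12 probe sets passed a limma adjusted p of 0.05, with adjusted p from 0.114 to 0.464, where 0.145% of all probe sets passed as lower and 0.934% as higher. At an unadjusted p under 0.05, 5 of the 9 genes and 8 of the 12 probe sets were lower, against 7.94% of all probe sets. Most of the 12 are bright, and this share was not computed for bright probe sets alone.

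All 3 silica arrays lay below all 3 controls in 10 of the 12 probe sets, and in 7 of the 9 brightest ones. Over the whole array 12.2% of probe sets were separated in this direction. Because 10 of the 12 lay among the brightest 10% of probe sets, the share there is the closer background: it was 26.8%. An estimate below 0 was found for 11 of the 12, where 50.2% of all probe sets and 56.9% of the brightest 10% had one. These shares describe the background, and no test of the gene list as a whole was made.

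**Figure D1:**
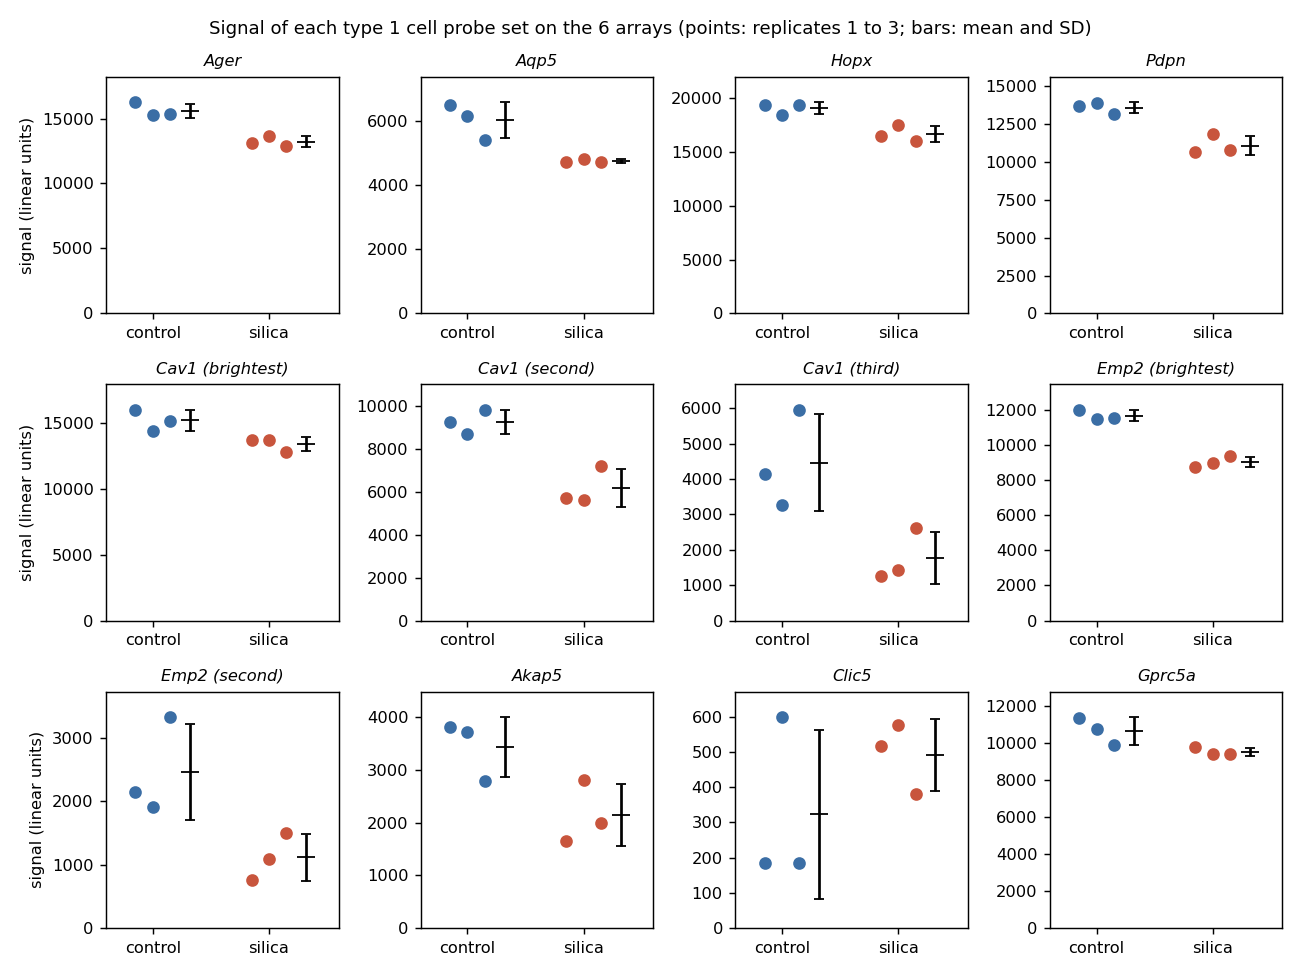
Linear signal of each type 1 cell probe set on the 3 control and 3 silica arrays, with points for animals and bars for the mean and SD; every axis starts at 0. Silica points lie below all control points in 10 of the 12 panels, and the groups overlap for Akap5 and Clic5.

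Ager encodes the receptor for advanced glycation end products, an immunoglobulin-like receptor that type 1 cells carry in exceptional amounts on their basal surface. Its probe set (1387159_at) gave 16236, 15239 and 15331 in controls 1 to 3 and 13081, 13670 and 12872 in silica 1 to 3. Every silica animal was below every control. The means were 15602 ± 551 (SD, n = 3) and 13208 ± 414 (SD, n = 3), so silica stood at 84.7% of control (log2 difference -0.24 ± 0.09 SE, 95% interval -0.46 to -0.02, adjusted p = 0.259). The intervals given here are for 1 probe set at a time, without adjustment for the number tested.

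Pdpn encodes podoplanin, a mucin-like membrane protein of the apical surface long used to recognise these cells. Its signal (1386913_at) was 13676, 13851 and 13167 in the controls and 10652, 11810 and 10754 in silica. The 2 groups were apart by more than their own ranges, with silica at 81.6% of control (log2 difference -0.29 ± 0.10 SE, 95% interval -0.53 to -0.06, adjusted p = 0.207).

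Aqp5, the water channel of the apical membrane, had 6513, 6146 and 5424 in the controls and 4726, 4833 and 4724 in silica (1368469_at). The silica animals were nearly alike (SD 62.3) and the controls spread more (SD 554). Silica stood at 79.3% of control (log2 difference -0.34 ± 0.11 SE, 95% interval -0.59 to -0.08, adjusted p = 0.199). Gprc5a, a retinoic acid-inducible orphan receptor gene, had 11328, 10767 and 9851 in the controls and 9771, 9399.5 and 9395 in silica (1376828_at). Its lowest control exceeded the highest silica array by little, and the interval of the log2 difference (-0.16 ± 0.10 SE, -0.40 to 0.08, adjusted p = 0.464) held 0.

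The start regions of these genes were not alike in base composition. In the RefSeq promoter table of the rat assembly GRCr8, which gives 250 bases before and 50 after each start, 10 windows matched 9 of the 10 genes, Cav1 with 2 starts. The gene without a window was Gprc5a, and Rtkn2, which has no signal value here, is among the 9. Ager and Aqp5 are shown because they had the fewest and the most CG pairs of the 10 windows, 2 and 49, where the median of all 33469 windows was 7; capitals mark CG pairs. Ager lies at chr20:4155636-4155935 on the minus strand and Aqp5 at chr7:132601278-132601577 on the plus strand.
Ager: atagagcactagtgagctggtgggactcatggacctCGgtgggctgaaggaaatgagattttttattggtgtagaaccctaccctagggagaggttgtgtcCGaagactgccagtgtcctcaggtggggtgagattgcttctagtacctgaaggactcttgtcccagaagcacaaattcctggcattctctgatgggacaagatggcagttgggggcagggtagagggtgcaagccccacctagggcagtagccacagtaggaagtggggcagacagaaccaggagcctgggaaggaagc
Aqp5: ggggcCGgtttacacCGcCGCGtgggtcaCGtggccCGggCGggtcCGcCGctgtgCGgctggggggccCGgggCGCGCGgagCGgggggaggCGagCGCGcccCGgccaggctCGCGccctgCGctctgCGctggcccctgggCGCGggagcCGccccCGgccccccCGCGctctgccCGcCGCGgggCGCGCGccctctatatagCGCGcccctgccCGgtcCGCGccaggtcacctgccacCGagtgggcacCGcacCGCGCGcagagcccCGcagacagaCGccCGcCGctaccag
The GC content was 54.3% in the Ager window and 82.3% in the Aqp5 window, against a median of 51.7%. The letters GGAATG (core of TEAD factors), CACTCAAG (NKX2-1) and TGTTTAC (FOX factors), searched on both strands, were in 0 of the 10 windows and in 14.2%, 1.18% and 3.78% of all windows. That says only that these letters were not in these 300 bases. The 2 genes with such different windows had log2 differences of -0.24 and -0.34.

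Hopx encodes a small homeodomain protein that binds no DNA itself and marks mature type 1 cells. It was the brightest of the 9 genes, at 19427, 18430 and 19343 in the controls and 16540, 17544 and 16063 in silica (1367816_at). The groups did not overlap, but the interval held 0 (silica at 87.6% of control, log2 difference -0.19 ± 0.09 SE, -0.42 to 0.04, adjusted p = 0.356). With quantile normalization the log2 difference was -0.11.

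Akap5 encodes an anchoring protein that holds protein kinase A and its partners near the membrane. It had the largest difference among the genes lower in silica by the brightest probe set, with 3809, 3729 and 2789 in the controls and 1648, 2805 and 1985 in silica (1387493_at). Silica 2 was just above control 3, so the groups overlapped. Silica stood at 61.6% of control, with a wide interval (log2 difference -0.70 ± 0.23 SE, 95% interval -1.26 to -0.14, adjusted p = 0.210).

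Clic5 encodes an intracellular chloride channel-like protein tied to the actin cytoskeleton, and it was the dimmest and most scattered of the genes. Its signal (1370254_at) was 184, 599.5 and 184 in the controls and 516, 578 and 380 in silica. Control 2, the animal poor in heart muscle RNA, was above all silica animals, while the other controls were below them. The log2 difference of 0.78 ± 0.46 SE (95% interval -0.35 to 1.91, adjusted p = 0.442) therefore gave no direction, and it was 1.32 without control 2. The part of heart muscle RNA in this was not tested. The 4 genes with the pattern nearest to that of Clic5, by the root mean square distance of centred log2 values over the 6 arrays, were Gch1, Ckb, Tfec and Tnpo3 at 0.38, 0.39, 0.42 and 0.44, out of 7101 genes searched.

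Cav1 encodes caveolin 1, the coat protein of caveolae, the flask-shaped pits that are dense in type 1 cells and capillary endothelium. It had 3 probe sets, and all 3 were lower in every silica animal, by very different amounts. The brightest (1372111_at) gave 15995, 14415 and 15168 in the controls and 13663, 13703 and 12807 in silica (88.2% of control, log2 difference -0.18 ± 0.10 SE, 95% interval -0.42 to 0.05, adjusted p = 0.390). The second (1393281_at) gave 9242, 8696 and 9833 against 5727, 5622.5 and 7210.3 (66.5% of control, log2 difference -0.59 ± 0.13 SE, adjusted p = 0.114, the lowest of the 12). The third (1370131_at) gave 4146, 3280.2 and 5959 against 1271, 1423 and 2618 (39.0% of control, log2 difference -1.36 ± 0.34 SE, adjusted p = 0.137).

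Emp2, a tetraspan membrane protein gene that is also linked to caveolin and integrins, showed the same division. The brighter probe set (1373617_at) gave 11992, 11477 and 11506 in the controls and 8760.4, 8965 and 9335 in silica. That was 77.4% of control with little scatter in either group (SD 289 and 291, log2 difference -0.37 ± 0.09 SE, 95% interval -0.59 to -0.15, adjusted p = 0.133). The dimmer one (1377752_at) gave 2148, 1905 and 3333 against 754, 1092 and 1502 (45.3% of control, log2 difference -1.14 ± 0.31 SE, adjusted p = 0.159).

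Within an array, the dimmer probe sets were further below the brightest one of their gene in silica than in control. For the third Cav1 probe set this distance averaged -1.81 in control and -2.98 in silica on the log2 scale, and for the second -0.71 and -1.12. For the dimmer Emp2 probe set it was -2.28 and -3.05. In all 3 the groups did not overlap (exact permutation test, 2-sided p = 0.1 for each, the smallest that 3 against 3 allows). Both Cav1 distances are taken from the same brightest probe set, so these results are not independent. How often such distances separate the groups in other genes with several probe sets was not computed. Control 3 and silica 3, with the lowest 3-prime to 5-prime ratios of their groups, also had the highest signals of their groups in these 3 probe sets.

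With the ratio as a covariate in the fit, the log2 difference of the third Cav1 probe set was -0.70 instead of -1.36 and that of the dimmer Emp2 probe set -0.53 instead of -1.14. The second Cav1 probe set went from -0.59 to -0.39. The brightest probe sets had -0.23 for Cav1 and -0.34 for Emp2 in that fit, near their -0.18 and -0.37 without it. Without control 3 and silica 1, the arrays with the lowest and the highest ratio, the third Cav1 probe set had -0.93 and the dimmer Emp2 probe set -0.65. The median over the 9 genes was -0.27 with the covariate and -0.25 without those 2 arrays. Fewer genes had an unadjusted p under 0.05 in these fits (limma): 2 of the 9 with the covariate and 3 without those 2 arrays, against 5 in the main fit. The sources used here do not say where in the transcript each probe set lies.

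**Figure D2:**
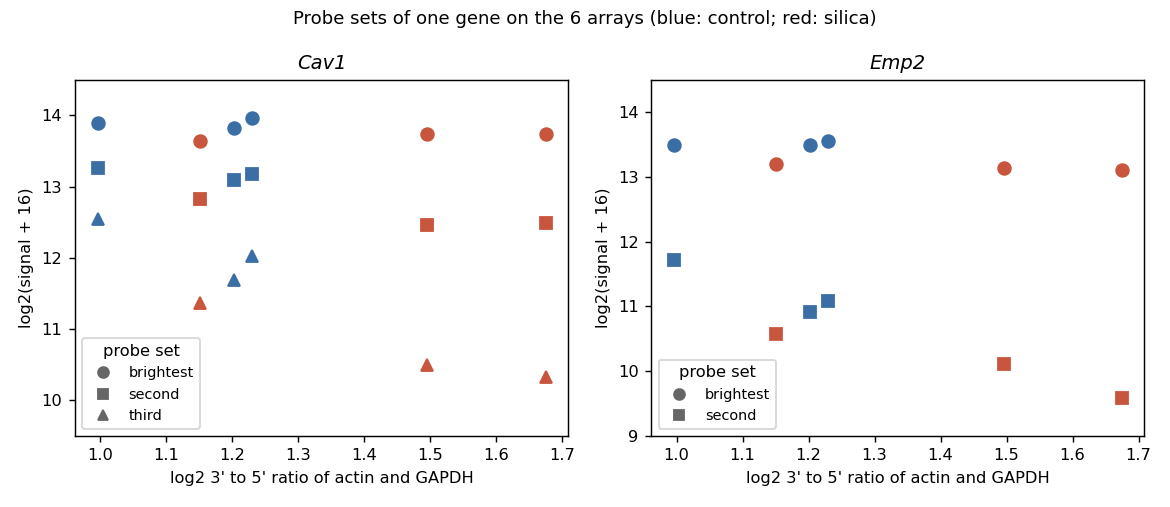
Log2(signal + 16) of the 3 Cav1 and the 2 Emp2 probe sets against the mean log2 3-prime to 5-prime ratio of beta-actin and GAPDH, 1 point per array and probe set, controls in blue and silica in red. The brightest probe sets form nearly level rows, while the third Cav1 and the second Emp2 probe set are lowest on the silica arrays with ratios of 1.50 and 1.67.

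**Figure D3:**
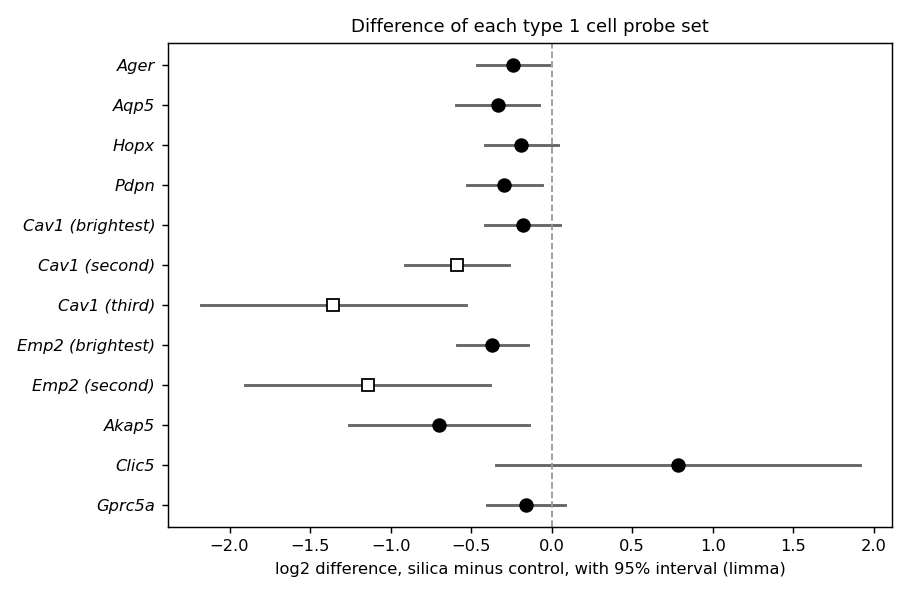
Log2 difference (silica minus control) of each type 1 cell probe set with its 95% interval from limma; filled circles are the brightest probe set of a gene and open squares its further ones. The intervals of 8 of the 12 lie below 0, and that of Clic5 runs from -0.35 to 1.91.

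The gene lists that follow use each gene's brightest probe set. Over all 14217 genes, 1.55% were called higher and 0.12% lower, 12.6% were higher and 7.24% lower at an unadjusted p under 0.05, and 46.3% had an estimate below 0. A wider list of genes of type 1 cells gave much the same picture as the 9 genes. Of 24 listed, 20 were measured, 17 of them with an estimate below 0, and none passed the adjusted threshold. At an unadjusted p under 0.05, 7 were lower and 0 higher, and the list median was -0.25. Many of the 20 are bright, and among the brightest 10% of probe sets 56.9% had an estimate below 0. The share at an unadjusted p under 0.05 was not computed for bright probe sets alone. Lama3, a laminin chain gene of the epithelial basement membrane, had 658 ± 99.7 in control and 396 ± 62.4 in silica (log2 difference -0.71, adjusted p = 0.120). Ndnf, a secreted protein gene, had -0.35 and Clic3, a relative of Clic5, -0.32. Of the few with higher means, the carboxypeptidase gene Cpm had 0.20 and Gramd2a 0.17.

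Regulators of the type 1 fate, among them the Hippo pathway whose effectors act through TEAD factors, had a median of -0.24, with 10 of 11 measured genes below 0 and none called. At an unadjusted p under 0.05, 4 were lower and 0 higher. The Hippo kinase gene Lats2 averaged 6261 ± 146 in control and 4876 ± 132 in exposed lung (log2 difference -0.36, adjusted p = 0.136). Gata6 had -0.66 and Tead1 -0.29. Nkx2-1, the lung epithelial identity factor of both alveolar cell types, had 0.05 (adjusted p = 0.823).

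Partners of Cav1 in caveolae had a median of -0.12, with 6 of 8 measured genes below 0 and none called, 3 lower at an unadjusted p under 0.05. Ehd2, an ATPase that stabilises the neck of caveolae, had 2678 ± 316 in control and 1603 ± 373 in silica (log2 difference -0.76, adjusted p = 0.152). The coat genes Cav2 and Cavin3 had -0.30 and -0.31, and Cavin2 -0.07. Cav2 resembled Cav1 in that its 4 probe sets were unequal, with -0.37, -1.43 and -0.08 in the further ones.

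Ligands of the receptor Ager had estimates on both sides of 0: 5 of 8 measured genes were below 0, the median was -0.18 and none was called. At an unadjusted p under 0.05, 2 were lower and 1 of the 8 was higher, a share near the 12.6% of all genes. S100a9 encodes a calcium-binding protein of neutrophils; its signal was 4399 ± 557 in control animals and 8760 ± 2788 in exposed ones (log2 difference 0.95, adjusted p = 0.134), with its highest signal in silica 2. S100a6 and S100a1 had -0.31 each.

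Markers of alveolar type 2 cells were nearer to 0 than the type 1 genes. Their median was -0.07 over 12 genes, 7 of them below 0, and none was called. At an unadjusted p under 0.05, 1 gene was higher and 0 were lower. In 1 of the 12 all silica arrays lay below the controls and in 2 above them. Over all 14217 genes, 1802 were separated downward and 2659 upward. Lpcat1 and Abca3, genes of surfactant lipid synthesis and transport, had 0.29 and 0.22, and the fatty acid transporter gene Cd36 had -0.36. The surfactant protein gene Sftpc had 23196 ± 518 and 21418 ± 2980, and its interval on the log2 scale was -0.43 to 0.18. The difference between the type 1 and type 2 lists was not tested.

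Array by array, the 9 type 1 genes had a mean log2 deviation from the control mean of -0.22, -0.09 and -0.25 in silica 1 to 3, and of 0.00, 0.12 and -0.13 in controls 1 to 3, so silica 2 lay above control 3. The 8 genes other than Clic5 had a mean log2 deviation from the control mean of -0.36, -0.23 and -0.34 in silica 1 to 3, and of 0.07, 0.00 and -0.08 in controls 1 to 3. The type 2 markers had -0.12, 0.09 and -0.10 in silica 1 to 3. Without Clic5, left out after its values were seen, the type 1 genes averaged below the controls in each silica animal, and the type 2 markers in silica 1 and silica 3 but not in silica 2.

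Markers of transitional and injured epithelium, the state that type 2 cells pass through on the way to type 1 cells, had a median of 0.10, with 4 of 10 below 0 and none called. At an unadjusted p under 0.05, 3 of the 10 were higher and 2 lower, where 12.6% and 7.24% of all genes were. Lgals3, a lectin gene that macrophages also make in quantity, had 7706 ± 212 and 11394 ± 350 (log2 difference 0.56, adjusted p = 0.0565). Krt19 had -0.36 and Cdkn1a 0.40. Markers shared by epithelial cells had a median of -0.17, 7 of 9 below 0, none called, with 1 higher and 3 lower at an unadjusted p under 0.05; the serine protease gene St14 had 0.35, Krt18 -0.36 and Cdh1 -0.35. Airway epithelium had a median of -0.13, 5 of 7 below 0, none called and 3 lower at that level, with Krt5 at -0.74, Cyp2f4 at -0.45 and Tppp3 at -0.26.

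Endothelial markers were the nearest in size to the type 1 genes among the other cell types listed. Their median was -0.19, 10 of 11 were below 0, none was called by its brightest probe set, and 3 were lower at an unadjusted p under 0.05. Kdr, the receptor for the growth factor Vegfa, had 8312 ± 260 and 6590 ± 128 (log2 difference -0.33, adjusted p = 0.153). Esam had -0.30 and Eng -0.38. The second probe set of Egfl7, named after its values were seen, was lower by the adjusted limma test (log2 difference -0.83, adjusted p = 0.0405). With the 3-prime to 5-prime ratio as a covariate, 0 probe sets of the whole array passed. Part of the Cav1 and Emp2 signal can come from endothelial cells, and its share was not tested. The lymphatic and mesothelial cells that also make Pdpn had medians of -0.01 and -0.08, with 3 of 6 and 3 of 4 genes below 0, none called, and 0 and 1 lower at an unadjusted p under 0.05. Prox1 had -0.16, Ccl21 0.19, Mmrn1 -0.12, Msln 0.26 and Lrrn4 -0.14. The mesothelial gene that was lower at that level was Krt19 (-0.36), which also stands among the markers of transitional and injured epithelium. Fibroblast markers had a median of -0.12, 5 of 7 below 0 and 0 at an unadjusted p under 0.05, with Pdgfra at -0.21, Tcf21 at -0.36 and Dcn at -0.55.

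Markers of immune cells had mostly higher signals in silica, beside the lower signals of type 1 genes. Of 8 macrophage genes listed 5 were measured, and 2 of them were called higher, where 1.55% of all genes were. Cd68 had 2764 ± 125 in control and 5138 ± 630 in silica (log2 difference 0.88, limma adjusted p = 0.0431). Itgax had 1784 ± 156 and 3195 ± 291 (log2 difference 0.84, limma adjusted p = 0.0458). With the 3-prime to 5-prime ratio as a covariate, or without control 3 and silica 1, 0 probe sets of the whole array passed. The macrophage median was 0.62, and the summed signal of these 5 genes was 8337 to 9143 in control and 12289 to 13062 in silica. Of 7 general leukocyte genes none was called and 6 were higher at an unadjusted p under 0.05, where 12.6% of all genes were, with a median of 0.46 and a summed signal of 25445 to 26468 in control and 32269 to 34242 in silica. Coro1a had 0.68, Laptm5 0.51 and Ptprc 0.46. In each of these 2 lists 1 gene was below 0, at -0.45 among the macrophage genes and at -0.27 among the leukocyte genes. Heart muscle genes had a median of 0.09 over 6 genes, none called and 0 at an unadjusted p under 0.05, with Tnnt2 at 0.39, Nppa at -0.27 and Ryr2 at 0.18. The part of these cells in the lower type 1 signals was not tested.

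**Figure D4:**
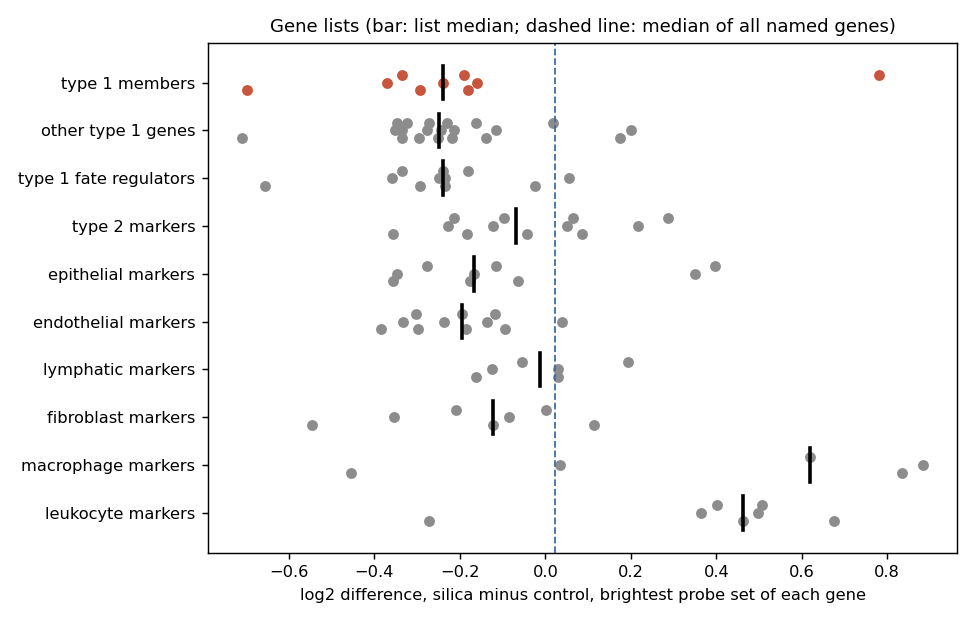
Log2 difference (silica minus control) of the brightest probe set of each gene, by gene list; the bar is the list median and the dashed line the median of all named genes, 0.02. The type 1 genes other than Clic5 lie to the left of 0, and the list median with Clic5 is -0.24. Type 2 markers run from -0.36 to 0.29 with a median of -0.07, and macrophage and leukocyte markers lie mostly to the right.

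Whether single type 1 genes passed depended on the setting. With an intensity trend and robust spread, which lets the expected spread vary with the mean signal, Ager, Aqp5, Pdpn, Emp2 and Akap5 passed as lower by their brightest probe set, 5 of 9 genes, where 2.32% of all probe sets did. Of these 9 probe sets 8 lay among the brightest 10%, and the share passing among those was not computed. With the dimmer 50% of probe sets left out Emp2 passed as 1 of 9, with 4 of the 12 probe sets in all, where 4.07% of those tested did. With pseudocount 64 the second Cav1 probe set passed, where 0.683% of all probe sets did. The adjusted p of Emp2 ran from 0.00453 to 0.458 over the alternatives. The estimates themselves kept their sign in each alternative tried for all 12 probe sets.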

How the data were processed

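Lung RNA of 3 silica-exposed and 3 control rats was measured on 1-colour arrays with biotin-labelled cRNA, per the labels' protocols. The authors deposited linear signal intensity values, 1 per probe set and array; the sources used here do not name the software that made them. In those values, the mean after trimming 2% at each end was 500.14 to 500.15 on every array, so the arrays had been brought to a common level. Whether this was done by 1 factor per array alone is not given.

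The 57 array control probe sets were set aside. Of the other 31042, 20826 carried 1 gene in the platform annotation (20758 matched by identifier to RefSeq GRCr8 for current symbols), 436 several and 9780 none. Silica was compared with control on log2(signal + 16) in 1 model of group (limma 3.58.1 under R 4.3.3). Moderated tests had 4 residual plus 2.18 prior degrees of freedom, and p-values were adjusted after Benjamini-Hochberg across all 31042 probe sets. No filter on low values was used. The arrays' number limits the precision of every value.

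The members and the 15 other lists were chosen with earlier results of these data known. Cav2, Krt8, Krt18 and Krt19 stand in 2 lists each. Named from each list were called genes, or else up to 3 with the smallest p, and any member whatever its value; Cpm, Gramd2a, Nkx2-1, Cavin2, Sftpc, and further probe sets were named after their values were seen. Nothing in the labels says whether the replicate numbers pair the animals, and they were not treated as pairs in the main fit. Deviations of same-numbered arrays correlated at 0.09, 0.04 and 0.09. Alternatives were the pseudocount, quantile normalization, median centring, a filter on dim probe sets, the prior of the spread, array weights, a replicate block, the 3-prime to 5-prime ratio as a covariate, and arrays left out.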

Additional observations from a re-analysis of the deposited data

How the results depend on the processing

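Over the whole array 335 probe sets passed, and this count moved with the setting: 43 with pseudocount 1, 919 with pseudocount 64, 1675 with the dimmer 50% left out, 1862 with an intensity trend and robust spread, and 920 at an adjusted p under 0.1. It was 0 with the RNA quality covariate and 0 with control replicate 3 and silica replicate 1 left out together (limma; 3184 and 3590 at an unadjusted p under 0.05), and 0 to 12 with 1 array left out (4024 to 5427 unadjusted). The type 1 genes called lower by the brightest probe set were 0, but 5 with the intensity trend and 1 with the dimmer 50% left out; over the 12 probe sets these were 6 and 4, and 1 with pseudocount 64. Their median, -0.24, ran from -0.29 (mean of all probe sets) to -0.20 (quantile normalization), and 8 of 9 genes were below 0 in each alternative. With the mean of all probe sets Cav1 had -0.71 and Emp2 -0.76, against -0.18 and -0.37. Clic5 ran from 0.39 to 1.32. With 1 array left out, 1 to 5 of the 9 genes had an unadjusted p under 0.05 (limma), against 5 with all arrays.

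With the replicate number as a block, 1 probe set passed over the whole array and 0 of the type 1 genes (limma; 4 of 9 at an unadjusted p under 0.05), with the median at -0.24. Among the arrays of the other group, each of the 6 arrays correlated best with that of its own number, at only 0.04 to 0.09. Deviations from a group mean depend on each other, so these matches cannot show whether the animals were paired. With no detection calls among the values, how far dim signals stand above background is not known.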
